A study of Mus musculus with 27 samples.

Results

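The genes described here were 9 transcription factor genes that mark position along the embryonic body and limbs: the T-box genes *Tbx2*, *Tbx3*, *Tbx4*, *Tbx5*, *Tbx15* and *Tbx18*, the paired-type homeobox gene *Pitx1*, and the TALE homeobox genes *Meis1* and *Meis2*. They were chosen by symbol from the 37310 genes of the deposited expression table, and all 9 were found there and tested. The RNA-seq comprised 12 libraries of mouse embryonic fibroblasts (MEFs) in 4 groups of 3 replicates: female WT, female *Firre* KO, male WT and male *Firre* KO. *Firre* is an X-linked gene for a long non-coding RNA, and the KO allele is a germline deletion of the locus, promoter included, by loxP recombination, so no cell type restricts it. The study's methods state that the MEFs were grown from single mid-gestation embryos after the head, the viscera and the forelimbs and hind limbs had been taken off, and were used at low passage. A Hi-C contact map of WT C2C12 cells, a mouse muscle line, was also available. The labels do not say whether replicates came from separate embryos or cultures, so p-values measure the spread between these samples, which may be technical. Sex cannot be told apart from the embryos or cultures that the female and male MEFs came from.

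Fibroblasts keep a record of where in the body they arose in the transcription factors they go on expressing. *Tbx5* is switched on in the forelimb field and is needed for the forelimb to form, whereas *Tbx4* and *Pitx1* mark the hindlimb, where Pitx1 acts upstream of *Tbx4*. *Tbx2* and *Tbx3* encode repressors expressed at the limb margins and in many other organs, *Tbx15* and *Tbx18* act together in limb skeleton and dorsal skin and in somites, and *Meis1* and *Meis2* mark the proximal limb and trunk and partner with Hox and Pbx proteins. T-box proteins bind DNA through a shared domain, and *Tbx2*/*Tbx4* and *Tbx3*/*Tbx5* arose as neighbouring pairs that still lie side by side.

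The libraries held between 42986516 and 51481034 expected counts in female MEFs and between 51521907 and 65454660 in male MEFs, so every female library was shallower than every male library. *Firre*, listed as 6720401G13Rik, was at 1.99 to 2.43 CPM (counts per 10 to the power of 6 reads, after TMM scaling) in the 3 female WT libraries and 4.48 to 4.95 CPM in the 3 male WT libraries, and had 0 counts in all 6 KO libraries. By counting error alone, 0 counts allow a level of up to 3 counts, or 0.0463 to 0.0679 CPM in those libraries. All 9 fibroblast markers of a list passed the filter on low counts, with summed levels of 16187 to 23719 CPM. The male libraries numbered 3, of WT and of KO, stood furthest from the other libraries of their groups, with a chi-square per degree of freedom of 37.8 to 45.1 over genes against 7.55 to 16.6 for every other pair of replicates. Where leaving out both changed the sign or the call of a comparison between groups, the value without both is given too, an alternative chosen after the data were seen.

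*Tbx5*, the forelimb gene, was the lowest of the 9. It lies on chromosome 5 from 120284672 to 120335227 (mm9, plus strand) and had 42 to 164 expected counts per library. Its level was 1.22, 1.86 and 0.791 CPM in female WT, 1.02, 3.07 and 2.15 CPM in female KO, 0.979, 2.55 and 0.862 CPM in male WT, and 1.02, 2.53 and 2.37 CPM in male KO. Within every group the highest library was more than 2 times the lowest, and all 4 groups overlapped.

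*Tbx4*, one of the hindlimb genes, lies on chromosome 11 from 85699924 to 85729599 (plus strand). It was measured at 2.87, 4.66 and 5.56 CPM in female WT, 3.80, 4.52 and 4.91 CPM in female KO, 2.87, 3.32 and 1.11 CPM in male WT, and 4.50, 3.22 and 1.78 CPM in male KO. The lowest value in each male group came from the library numbered 3. WT and KO overlapped in each sex, as did female and male MEFs of each genotype, while all female KO values lay above all male WT values.

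*Pitx1*, the other hindlimb gene, lies on chromosome 13 from 55926415 to 55937553 (minus strand). Its level was 4.70, 4.82 and 5.73 CPM in female WT and 4.39, 6.52 and 9.20 CPM in female KO. In male MEFs it was 6.06, 1.71 and 3.39 CPM in WT and 5.38, 4.83 and 3.28 CPM in KO. The range of the male WT libraries alone took in the whole of the male KO group.

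*Tbx3*, a repressor gene of the limb margins, lies on chromosome 5 from 120120678 to 120134733 (plus strand), upstream of *Tbx5*. It was at 12.6, 14.4 and 11.1 CPM in female WT, 18.0, 17.4 and 17.7 CPM in female KO, 21.8, 18.5 and 21.1 CPM in male WT, and 20.5, 20.2 and 25.7 CPM in male KO. All female WT values lay below all others, the female KO values came next, and the male groups overlapped each other. *Tbx2*, its close relative, lies on chromosome 11 from 85646053 to 85655450 (plus strand) and was at 6.57, 6.98 and 6.12 CPM in female WT, 7.16, 9.35 and 8.01 CPM in female KO, 7.73, 7.71 and 12.95 CPM in male WT, and 10.8, 8.99 and 10.6 CPM in male KO. The highest *Tbx2* value, 12.95 CPM, was that of the male WT library numbered 3.

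*Tbx15*, a gene of dorsal dermis and limb skeleton, lies on chromosome 3 from 99044304 to 99158182 (plus strand) and was the most abundant member per length. It was measured at 41.8, 34.3 and 44.2 CPM in female WT, 34.9, 57.1 and 45.6 CPM in female KO, 58.6, 62.8 and 63.3 CPM in male WT, and 61.8, 64.8 and 68.8 CPM in male KO. Every male value exceeded every female value. *Tbx18*, its partner gene in somites and limb, lies on chromosome 9 from 87597635 to 87626095 (minus strand) and ran the other way, at 20.1, 19.5 and 20.4 CPM in female WT, 18.8, 20.3 and 23.6 CPM in female KO, 14.9, 16.9 and 14.3 CPM in male WT, and 14.9, 15.1 and 17.6 CPM in male KO. Here every female value exceeded every male value.

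*Meis2*, a marker of proximal limb and trunk, lies on chromosome 2 from 115688800 to 115891575 (minus strand) and varied least. Its level was 45.7, 44.3 and 40.6 CPM in female WT, 46.7, 44.8 and 44.9 CPM in female KO, 55.3, 52.3 and 53.4 CPM in male WT, and 54.9, 50.8 and 50.7 CPM in male KO, and every male value exceeded every female value. *Meis1*, its paralogue, lies on chromosome 11 from 18780433 to 18918961 (minus strand) and was at 20.9, 19.5 and 18.5 CPM in female WT, 18.8, 22.4 and 18.4 CPM in female KO, 23.7, 26.1 and 25.8 CPM in male WT, and 21.1, 19.7 and 24.5 CPM in male KO. Only its male WT values all lay above both female groups.

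**Figure D1:**
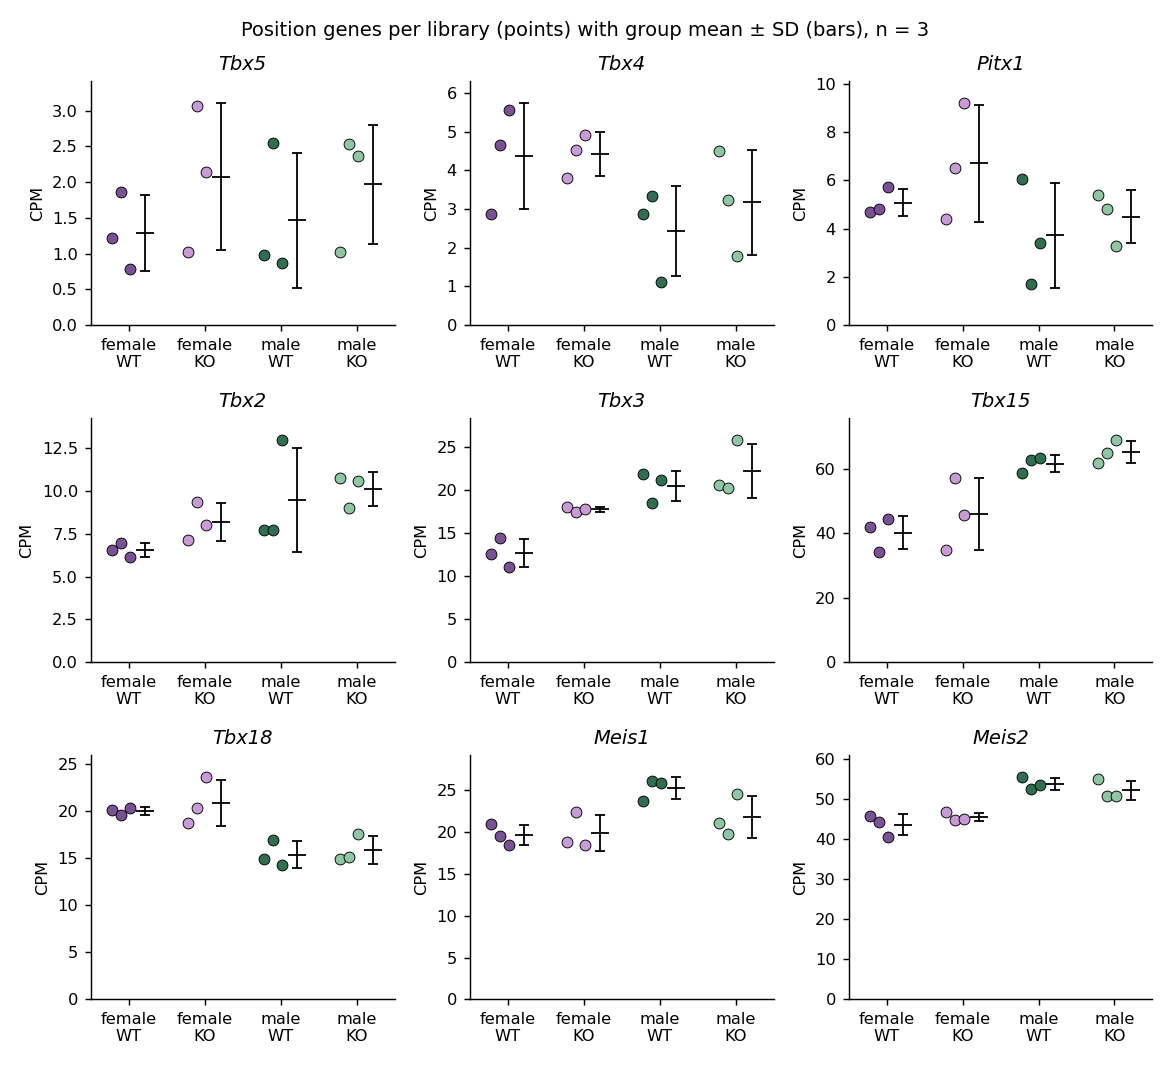
CPM of the 9 genes (y axis, linear, starting at 0) in the 12 libraries, by group; points are libraries and black bars the group mean ± SD (n = 3). *Tbx15* and *Meis2* sit higher, and *Tbx18* lower, in all 6 male libraries than in all 6 female libraries, whereas for *Tbx5*, *Tbx4* and *Pitx1* the groups overlap between KO and WT of each sex and between the sexes in each genotype.

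The start regions of 4 of the 9 genes were in the RefSeq promoter table (GRCm38.p6) and matched the genome of the files' build (mm9) exactly, each at a single place. *Tbx2*, *Tbx3*, *Tbx5*, *Tbx15* and *Pitx1* were not in that table. The 250 bases before the start are shown for a hindlimb gene whose libraries scattered and for *Tbx18* and *Meis2*, whose female and male libraries did not overlap, with CG dinucleotides in capitals, 5′ to 3′ on the gene's strand. The *Tbx4* start used by RefSeq lies 10343 bases inside the gene as annotated in the files (chr11:85710017-85710266), that of *Tbx18* coincides with the annotated start (chr9:87626096-87626345), and that of *Meis2* lies 1220 bases inside (chr2:115890356-115890605).
Tbx4: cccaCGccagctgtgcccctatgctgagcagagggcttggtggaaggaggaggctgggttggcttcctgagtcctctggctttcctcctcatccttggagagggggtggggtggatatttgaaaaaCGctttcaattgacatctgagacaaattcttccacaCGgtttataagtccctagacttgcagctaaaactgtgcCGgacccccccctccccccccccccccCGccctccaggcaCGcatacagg
Tbx18: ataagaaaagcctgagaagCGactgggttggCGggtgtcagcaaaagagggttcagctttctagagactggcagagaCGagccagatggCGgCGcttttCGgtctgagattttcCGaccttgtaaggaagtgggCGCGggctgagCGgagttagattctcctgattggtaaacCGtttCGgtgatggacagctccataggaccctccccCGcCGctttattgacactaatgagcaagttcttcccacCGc
Meis2: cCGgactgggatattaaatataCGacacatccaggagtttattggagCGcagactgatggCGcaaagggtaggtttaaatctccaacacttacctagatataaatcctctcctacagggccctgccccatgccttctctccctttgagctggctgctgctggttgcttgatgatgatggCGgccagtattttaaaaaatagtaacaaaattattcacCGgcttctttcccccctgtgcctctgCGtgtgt
The *Tbx4* stretch held 6 CG dinucleotides, that of *Meis2* 7 and that of *Tbx18* 15. The ratio of observed to expected CG over the 300 bases of the table was 0.31 for *Tbx4*, 0.67 for *Meis2*, 0.75 for *Tbx18* and 0.59 for *Meis1*, against a median of 0.38 over 32851 promoters. Both strands of the 250 bases were searched for AGGTGT (the core that T-box proteins bind), TGACAG (Meis) and TAATCC (Pitx), which 11.8%, 15.9% and 6.25% of all promoters held, and none of the 4 genes had a match. TATAAA was found once in *Tbx4* and once in *Meis2*, and in 12.4% of all promoters. Matches overlapped no other match.

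Levels were set side by side per length as approximate TPM (transcript share per exon length), from merged exon lengths. *Tbx15* came first with a mean of 40.2 TPM over the 12 libraries (25.4 to 54.1), above 76.6% of tested genes. *Meis2* (11.6 TPM), *Tbx18* (10.8), *Tbx3* (9.62), *Meis1* (8.26) and *Tbx2* (6.69) followed near the middle of the tested genes. *Pitx1* (5.30 TPM), *Tbx4* (2.97) and *Tbx5* (1.21) closed the order, *Tbx5* standing above 22.1% of tested genes. Of neighbours in this order, only *Tbx15* and *Meis2* had ranges that did not overlap. *Meis1* and *Meis2* have 6 and 18 annotated transcripts, and their merged exons (7394 and 11872 bases) are more than 2 times as long as their longest transcript (3428 and 5501 bases), which lowers their TPM. With the length of the longest transcript instead, an alternative chosen after the data were seen, *Meis2* averaged 25.0 TPM (21.1 to 28.6) and overlapped *Tbx15* (26.7 to 56.9), and *Meis1*, at 17.8 TPM (14.7 to 21.7), moved ahead of *Tbx18* (8.79 to 13.8). *Meis2* exceeded *Tbx18* in 6 of 12 libraries with merged exons and in 12 of 12 with the longest transcript, so their order rests on the length used.

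The limb-type genes varied most between replicates. The biological coefficient of variation (BCV), the spread between replicates beyond counting error, was 49.3% for *Tbx5*, 38.4% for *Tbx4* and 37.2% for *Pitx1*, against a median of 6.63% over the 15387 tested genes. Since spread depends on level, each was also set beside genes within 2-fold of its mean CPM. *Tbx5* then exceeded 94.3% of 1860 genes, *Tbx4* 94.8% of 2161 and *Pitx1* 96.1% of 2402. *Tbx15*, at 14.1%, exceeded 95.1% of 4160 genes of its level. *Tbx2* (17.2%), *Tbx3* (9.88%), *Meis1* (8.22%) and *Tbx18* (8.13%) exceeded 70.1% to 86.0% of theirs. *Meis2* was the exception, with a BCV of 3.72%, above 36.8% of 4267 genes of its level.

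**Figure D2:**
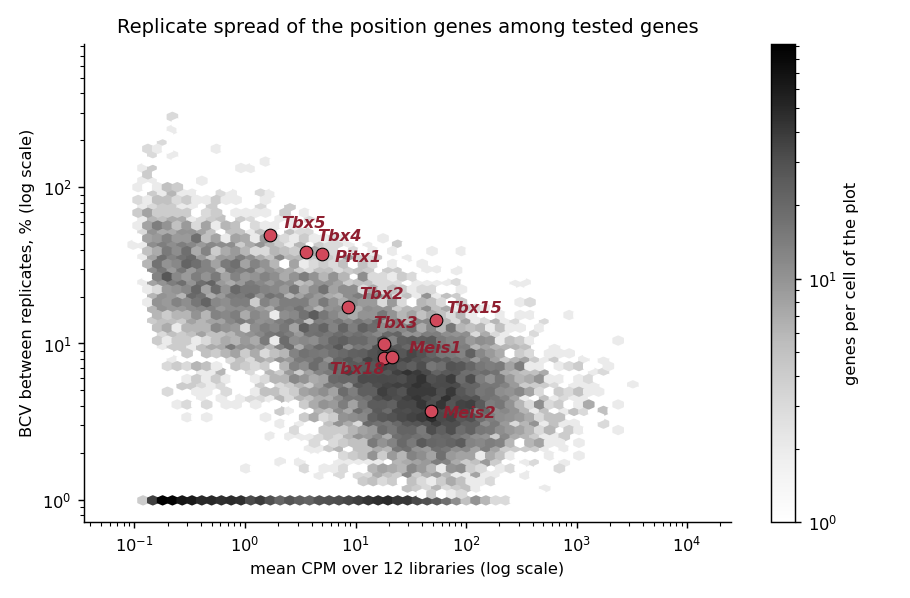
BCV between replicates in percent (y axis, log scale) against mean CPM (x axis, log scale) for the tested genes, with grey cells darker where more genes fall and the 9 position genes in red. *Tbx5*, *Tbx4*, *Pitx1* and *Tbx15* lie along the upper edge of the cloud at their levels and *Meis2* lies within it; the row of 1297 genes at the bottom, at 0.988%, is the lowest value the estimate takes.

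The forelimb gene was then compared with the hindlimb genes within each library, as log2 ratios of expected counts per exon length, in which library size cancels. *Tbx5* was below *Tbx4* in 11 of 12 libraries. The log2 ratio was -1.45, -1.54 and -3.01 in female WT, -2.10, -0.77 and -1.40 in female KO, -1.76, -0.59 and -0.57 in male WT, and -2.36, -0.56 and 0.20 in male KO. The library above 0 was the male KO library numbered 3, in which *Tbx4* was low. The mean over all libraries was -1.33 ± 0.91 (SD, n = 12).

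*Tbx5* was also below *Pitx1* in 11 of 12 libraries, by a mean log2 ratio of -2.17 ± 0.99 (SD, n = 12). The values were -2.51, -1.94 and -3.41 in female WT, -2.67, -1.66 and -2.67 in female KO, -3.19, 0.0027 and -2.54 in male WT, and -2.98, -1.50 and -1.04 in male KO. In the male WT library numbered 2, the highest in *Tbx5* and the lowest in *Pitx1* of its group, the genes stood level.

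No difference in these ratios between groups was detectable. With 3 libraries against 3 the exact permutation test cannot go below 0.10. KO minus WT for *Tbx5* to *Tbx4* was 0.57 ± 0.64 (SE) in female MEFs (two-sided exact permutation p = 0.4) and 0.07 ± 0.85 in male MEFs (exact p = 0.8). For *Tbx5* to *Pitx1* it was 0.29 ± 0.54 in female MEFs (exact p = 0.6) and 0.07 ± 1.14 in male MEFs (exact p = 1.000), and without both male libraries numbered 3 the male differences became -0.29 and -0.65 (exact p = 1.000 each). Female minus male, over 6 libraries of each sex, was -0.77 ± 0.49 for *Tbx5* to *Tbx4* (exact p = 0.158), with -1.02 within WT (exact p = 0.3) and -0.52 within KO (exact p = 0.6). For *Tbx5* to *Pitx1* it was -0.60 ± 0.57 (exact p = 0.316), with -0.71 within WT (exact p = 0.7) and -0.49 within KO (exact p = 0.6). Leaving out the male KO library numbered 1 brought the *Tbx5* to *Tbx4* difference between the sexes to -1.06 with an exact p of 0.0476, not adjusted for the 10 ratio comparisons made. Without both male libraries numbered 3 the same difference was -0.39 (exact p = 0.486), and that of *Tbx5* to *Pitx1* was -0.56 (exact p = 0.457).

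**Figure D3:**
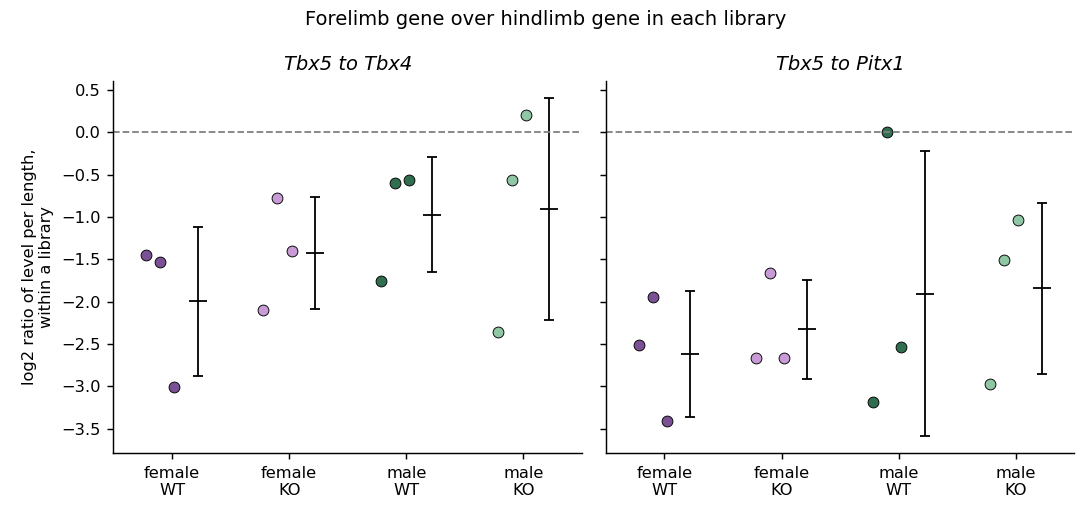
Log2 ratio of *Tbx5* to *Tbx4* (left) and to *Pitx1* (right) per exon length within each library (y axis), by group; points are libraries, black bars the group mean ± SD (n = 3), and the dashed line marks equal levels. In each panel 11 of 12 libraries lie below the line, and the groups overlap.

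Whether the 3 limb-type genes rose and fell together was examined within each sex over 6 libraries, in 6 relations on log2 CPM. None passed adjustment. *Tbx4* and *Pitx1*, the pair of the hindlimb pathway, gave r = 0.52 (permutation p = 0.294) and rho = 0.66 (p = 0.175) in female MEFs, with r = 0.74 without the 2 libraries farthest from the *Tbx4* median. In male MEFs the same pair gave r = 0.21 (permutation p = 0.667) and rho = 0.14 (p = 0.803), with r = 0.06 without those 2. *Tbx5* gave r of 0.12 with *Tbx4* (permutation p = 0.814) and 0.53 with *Pitx1* (p = 0.292) in female MEFs, and 0.21 (p = 0.657) and -0.52 (p = 0.242) in male MEFs. Their rho was -0.09 (permutation p = 0.919) and 0.60 (p = 0.242) in female MEFs, and 0.54 and -0.54 (p = 0.297 each) in male MEFs. Without the 2 libraries farthest from the *Tbx5* median, r with *Tbx4* became 0.77 in female and -0.56 in male MEFs, and r with *Pitx1* became 0.76 and -0.76, so the value for *Tbx5* and *Tbx4* depended on those libraries. Benjamini-Hochberg adjusted permutation p-values were 0.589 or more for r and 0.446 or more for rho.

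The genes whose profile over the 12 libraries came closest to those of the limb-type genes were found by the root mean square distance of mean-centred log2 CPM. For *Tbx4* they were *Lass3*, a ceramide synthase gene (0.23), *Mogat2*, a gene of triglyceride synthesis (0.31), and *Pbx4*, a homeobox gene of the Pbx family (0.32), where *Tbx4* itself varied by 0.63 around its mean. For *Pitx1*, which varied by 0.57, they were *Hoxd9*, a posterior Hox gene (0.31), Gm14834 (0.33) and 2900006K08Rik (0.34). For *Tbx5*, which varied by 0.67, the closest were Gm13717 (0.45), Gm9987 (0.46) and Gm13988 (0.48), so no tested gene followed it as closely. *Mogat2* averaged 20.0 CPM, *Hoxd9* 1.66 CPM, and the others less than 1 CPM. Some gene comes closest to any profile, and whether these distances are smaller than those of other genes to their closest was not tested.

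The first question of the design was whether loss of *Firre* altered these genes. No member passed a threshold in either sex. The test was the quasi-likelihood F test of edgeR, with p-values adjusted by Benjamini-Hochberg over all tested genes. In female MEFs it called 0 of 9 genes under the study's rule (adjusted p under 0.01 with more than a 2-fold difference), which called 0.0065% of tested genes, and 0 of 9 at an adjusted p under 0.05 alone, which called 0.013%. At an unadjusted p under 0.05 stood 1 of 9, against 7.55% of tested genes, and DESeq2 called 0 of 9. The log2 fold changes of KO against WT lay above 0 for all 9, against 49.9% of tested genes, with a median of 0.19 where that of all genes was 0.00. The sign of *Tbx4*, at 0.01 ± 0.40 (SE), turned with library size in place of TMM scaling and with 3 of the libraries left out singly, that of *Meis1* (0.02 ± 0.10) with 2 and that of *Tbx18* (0.06 ± 0.10) with 1.

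*Tbx3* came nearest to a call. Its mean was 12.7 ± 1.64 CPM in female WT and 17.7 ± 0.340 CPM in female KO (SD, n = 3), a log2 fold change of 0.48 ± 0.11 (SE) with an unadjusted p of 0.00124 and an adjusted p of 0.492 in edgeR's quasi-likelihood test. Under the alternatives the adjusted p ran from 0.101 (DESeq2) to 0.995 (edgeR's test without the female WT library numbered 1). *Tbx3* and *Tbx2* were the members whose female groups did not overlap, 2 of 9 against 19.1% of tested genes, and *Tbx2* stood at 0.32 ± 0.19 (adjusted p = 0.727 in edgeR's test). *Tbx5* stood at 0.70 ± 0.53, with overlapping groups (adjusted p = 0.793 in edgeR's test), and ran from 0.30 without the female KO library numbered 2 to 1.06 without the female WT library numbered 2. *Pitx1* stood at 0.40 ± 0.39, *Tbx15* at 0.19 ± 0.15 and *Meis2* at 0.06 ± 0.05. With 1 library left out they ran from 0.10 to 0.63, 0.0023 to 0.35 and 0.014 to 0.10.

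In male MEFs 0 of 9 genes were called under either rule by edgeR's test, where each rule called 0.0065% of tested genes, and 0 of 9 by DESeq2. At an unadjusted p under 0.05 stood 1 of 9, against 2.06% of tested genes. It was *Meis1*, with 25.2 ± 1.30 CPM in WT and 21.8 ± 2.46 CPM in KO (SD, n = 3), a log2 fold change of -0.21 ± 0.09 and an adjusted p of 1.00 in edgeR's test. Estimates lay above 0 for 7 of 9 genes, against 47.7% of tested genes, with a median of 0.10, and no member's groups were apart, against 5.29%. *Tbx3*, at 0.11 ± 0.11, overlapped between WT and KO in male MEFs. The limb-type genes had the widest errors, with *Tbx5* at 0.42 ± 0.52, *Tbx4* at 0.38 ± 0.40 and *Pitx1* at 0.28 ± 0.39. With 1 library left out *Tbx5* ran from 0.16 (without male WT numbered 3) to 1.10 (without male WT numbered 2), and *Tbx4* from 0.036 to 0.67 without the same libraries. *Tbx2* (0.10 ± 0.18), *Tbx15* (0.08 ± 0.14), *Tbx18* (0.04 ± 0.10) and *Meis2* (-0.04 ± 0.05) completed the set, with *Tbx15* running from 0.040 to 0.12 and *Meis2* from -0.080 to -0.020 with 1 library left out.

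Averaged over the sexes, 0 of 9 genes were called under either rule (0.0065% and 0.0195% of tested genes), 1 of 9 had an unadjusted p under 0.05 (6.24%), and 8 of 9 estimates were above 0 (48.8%). That gene was again *Tbx3*, at 0.30 ± 0.08 with an adjusted p of 0.676 in edgeR's test. Whether the KO acted differently in female and male MEFs was tested as an interaction. It gave 0 of 9 calls under either rule, 0.0% of tested genes being called, and 1 of 9 at an unadjusted p under 0.05 (3.19%), with 8 of 9 estimates above 0 (50.9%). For *Tbx3* the difference was 0.37 ± 0.16, with an unadjusted p of 0.0371 and an adjusted p of 1.00 in edgeR's test, so its female and male estimates were not shown to differ. DESeq2 also called 0 of 9 in both of these comparisons.

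Female and male MEFs differed in more of these genes. In WT MEFs, 6 of 9 passed an adjusted p under 0.05 in edgeR's quasi-likelihood test, which 38.7% of tested genes did, with 5 lower in female MEFs (19.8% of tested genes) and 1 higher (18.9%). In KO MEFs 4 of 9 passed, again against 38.7%, with 3 lower (19.7%) and 1 higher (18.9%). Under the stricter rule with its fold-change limit, 0 of 9 were called in WT or in KO by edgeR or DESeq2, where 4.54% and 3.89% of tested genes were. Groups did not overlap for 6 of 9 genes in WT (51.9% of tested genes) and 4 of 9 in KO (50.2%). *Tbx3*, *Tbx15*, *Tbx18* and *Meis2* passed in both with the same sign, 4 of 9 against 30.2% of tested genes. The median log2 fold change of female against male MEFs over the 9 genes was -0.30 in WT and -0.13 in KO, where those of all tested genes were -0.0052 and -0.0041. In bulk samples such as these, fewer cells of a type and less RNA per cell cannot be told apart.

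*Tbx15*, the dermal gene, was lower in female MEFs, by a log2 fold change of -0.62 ± 0.15 (SE) in WT (40.1 ± 5.18 against 61.6 ± 2.61 CPM, SD, n = 3, adjusted p = 0.00687 in edgeR's test) and -0.51 ± 0.15 in KO (adjusted p = 0.0175 in edgeR's test). *Tbx18*, its partner gene, was higher in female MEFs, by 0.38 ± 0.10 in WT (20.0 ± 0.422 against 15.4 ± 1.39 CPM, adjusted p = 0.00991 in edgeR's test) and 0.40 ± 0.10 in KO (adjusted p = 0.0075 in edgeR's test). The partner genes thus differed between the sexes in opposite directions in both genotypes.

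*Tbx3* was lower in female WT than in male WT MEFs by -0.69 ± 0.11 (12.7 ± 1.64 against 20.5 ± 1.75 CPM, adjusted p = 8.7e-04 in edgeR's test). In KO MEFs the difference was -0.32 ± 0.11 with an adjusted p of 0.0391 in edgeR's test. That call of edgeR's test was lost with any of 5 libraries left out, namely each female KO library, the female WT library numbered 1 and the male KO library numbered 3 (adjusted p 0.0532 to 0.131), and without both male libraries numbered 3 (-0.20, adjusted p = 0.124 in edgeR's test). *Tbx2* was lower by -0.53 ± 0.19 in WT (6.56 ± 0.431 against 9.47 ± 3.02 CPM, adjusted p = 0.0443 in edgeR's test). Without the male WT library numbered 3 this was -0.24 (adjusted p = 0.148 in edgeR's test; 0.135 without both male libraries numbered 3), and the call was also lost without any of the female WT libraries, the female KO library numbered 3 or the male KO library numbered 1 (adjusted p 0.0551 to 0.128). In KO MEFs *Tbx2* stood at -0.31 ± 0.19 (adjusted p = 0.215 in edgeR's test), and it passed without the male WT library numbered 3 (adjusted p = 0.0418).

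The Meis genes were both lower in female WT MEFs, *Meis1* by -0.36 ± 0.09 (19.6 ± 1.25 against 25.2 ± 1.30 CPM, adjusted p = 0.0118 in edgeR's test) and *Meis2* by -0.30 ± 0.05 (43.5 ± 2.65 against 53.7 ± 1.50 CPM, adjusted p = 0.00118 in edgeR's test). In KO MEFs *Meis2* was lower by -0.20 ± 0.05 (adjusted p = 0.0117 in edgeR's test) and *Meis1* stood at -0.13 ± 0.09 (adjusted p = 0.303 in edgeR's test), and at -0.23 to -0.039 with 1 library left out. Exons of *Meis1* overlap those of Gm16140 on the other strand over 896 bases, 12.1% of its exon length, and *Tbx3* shares 115 bases with Gm2301 (2.14%). Reads of such partners cannot be told apart in libraries that do not mark strand.

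The limb-type genes did not pass between the sexes. *Tbx4* was at 4.36 ± 1.37 CPM in female WT and 2.43 ± 1.17 CPM in male WT (SD, n = 3), a log2 fold change of 0.84 ± 0.40 (adjusted p = 0.122 in edgeR's test), and at 0.48 ± 0.40 in KO (adjusted p = 0.373). With 1 library left out *Tbx4* ran in WT from 0.50 (without the male WT library numbered 3) to 1.13. Leaving out the male KO library numbered 3 or 1 gave it 0.19 or 0.81 in KO. *Pitx1* stood at 0.45 ± 0.39 in WT and 0.57 ± 0.38 in KO (adjusted p = 0.388 and 0.261 in edgeR's test). In WT it was 0.10 without the male WT library numbered 2 and 1.00 without that numbered 1 (adjusted p = 0.835 and 0.0579 in edgeR's test), and in KO 0.28 without the female KO library numbered 3. *Tbx5* stood at -0.20 ± 0.53 in WT and 0.08 ± 0.52 in KO (adjusted p = 0.798 and 0.918 in edgeR's test). Its sign turned in WT without the female WT library numbered 3 (0.065) or the male WT library numbered 2 (0.47), and in KO without the female KO library numbered 2 (-0.32) or the male KO library numbered 1 (-0.24). A doubling would be a log2 fold change of 1.00, about 2 times the standard error of *Tbx5*.

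**Figure D4:**
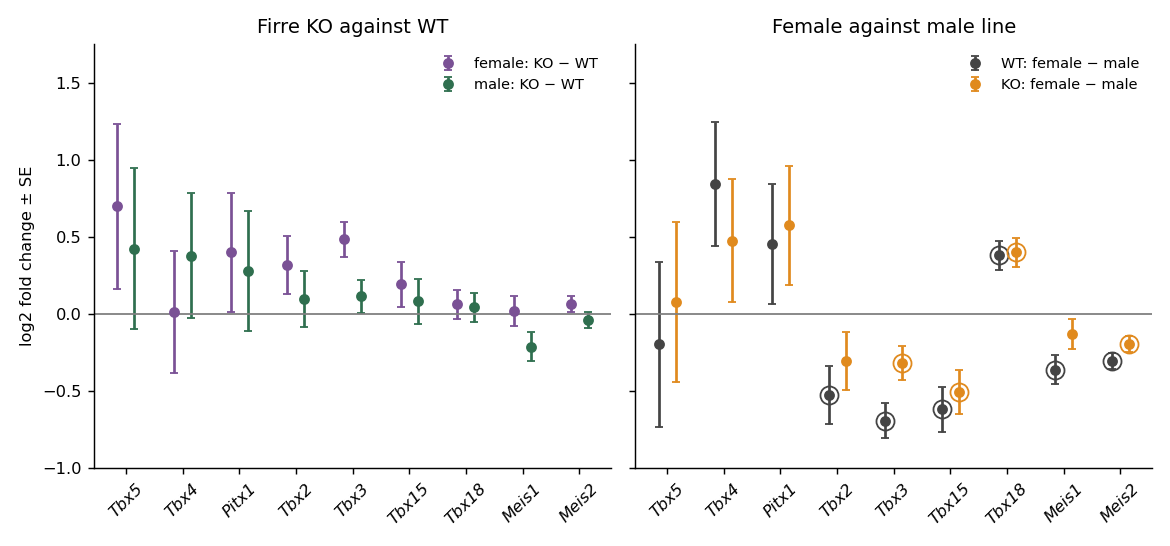
Log2 fold change ± SE (y axis) of the 9 genes for KO against WT within each sex (left) and for female against male MEFs within each genotype (right); larger open circles mark an adjusted p under 0.05 in edgeR's test. No gene is circled on the left; on the right 6 are circled in WT and 4 in KO, *Tbx18* being the one above 0.

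Markers of other cell types were compared between the sexes in the same way, where 18.9% of all tested genes were higher in female MEFs in each genotype and 19.8% (WT) or 19.7% (KO) lower. A gene high in 1 sex alone can pass the filter on low counts through that sex, so counts are given over the markers that reached the filter's level (0.194 CPM) in at least 3 libraries of each sex, and those left out (*Aif1*, *Krt5*, *Epcam*, *Cdh1*, *Myod1*, *Myog*, *Dcx*, *Pecam1* and *Cdh5*) reached it in fewer than 3 male libraries; this was added after the data were seen. Macrophage markers were higher in female MEFs for 8 of 8 such genes in both genotypes, with summed levels of the whole list of 38.4 to 123 CPM in female and 7.06 to 15.9 CPM in male libraries, and no tested macrophage marker was at 0 in any library. *Lyz2*, the lysozyme gene, had a log2 fold change of 3.31 ± 0.49 in WT. Epithelial markers were higher for 4 of 4 genes in WT and 2 of 4 in KO, with sums of 74.6 to 129 CPM against 40.8 to 53.7 CPM, none at 0. Skeletal muscle markers were higher for 3 of 5 genes in WT and in KO, with sums of 87.7 to 157 CPM against 79.3 to 146 CPM, while *Pax7* was at 0 in 8 libraries and *Myf5* in 3. Neural markers were higher for 2 of 5 genes in WT and 4 of 5 in KO (599 to 813 against 461 to 635 CPM) and endothelial markers for 1 of 3 in WT and 0 of 3 in KO by edgeR's test (25.0 to 35.4 against 17.1 to 23.3 CPM, *Tie1* at 0 in 5 libraries). Cartilage markers passed for 0 of 5 in WT or KO by edgeR's test. Fibroblast markers were lower for 2 of 9 genes in WT and for 3 of 9 in KO, where *Vim* was higher, with sums of 16187 to 19962 CPM in female and 18651 to 23719 CPM in male libraries. The part of these cell types, and of the depth that also separates the sexes, in the differences of the position genes was not tested.

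Other genes of the same families and body regions were read from lists, whose counts between the sexes stand beside the 38.7% of all tested genes that passed in WT and in KO. Of 11 further T-box genes, 4 passed the filter on low counts. *Eomes*, a gene of early mesoderm and brain, was higher in female MEFs by 0.83 ± 0.27 in WT and 0.89 ± 0.28 in KO (adjusted p = 0.0338 and 0.0247 in edgeR's test). *Tbx1*, a gene of the pharyngeal arches, was higher in WT (1.07 ± 0.38) and *Tbx20*, a heart gene, in KO (1.58 ± 0.46). Of the Pitx relatives and the Pbx, Pknox and Meis partner genes, 8 of 9 were tested. At an adjusted p under 0.05 in edgeR's test, 3 of 8 were lower in female MEFs in WT and 1 of 8 in KO, with 0 higher. Among those lower in WT were *Pbx3*, a homeobox gene of the Pbx family (-0.20 ± 0.05), and *Pknox1*, a TALE homeobox gene (-0.18 ± 0.06).

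Of 20 limb bud mesenchyme genes 18 were tested, and 2 were higher and 4 lower in female MEFs in each genotype, a share near that of all tested genes. *Grem1*, a BMP antagonist of the limb bud, was lower by -1.13 ± 0.27 in WT and -0.78 ± 0.27 in KO, *Prrx1*, a limb mesenchyme homeobox gene, by -0.64 ± 0.18 in WT, and *Fgf10*, the limb outgrowth signal, by -1.28 ± 0.41 in KO. *Msx1* was higher by 0.91 ± 0.32 in KO. The 2 genes counted as higher in WT, *Sall3* (0.58 CPM in female WT, 0.082 CPM in male WT) and *Shh* (0.38 and 0.047 CPM), the former counted in KO too, passed the filter on low counts only through female libraries, where they were high, and are not read further. The 4 further hindlimb-side genes (*Isl1*, *Hoxc9*, *Hoxc10*, *Hoxc11*) gave 0 calls at an adjusted p under 0.05 in every comparison of edgeR's test. Of 3 forelimb-side genes tested, *Aldh1a2*, the retinoic acid synthesis gene, was higher in female MEFs in both genotypes (0.62 ± 0.19 and 0.69 ± 0.19), and *Hoxc4* was lower in KO (-0.48 ± 0.16).

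Genes of other body regions stand beside the same background. Of 9 tested somite and trunk dermis genes, *Pax3* was higher in female MEFs in both genotypes (1.44 ± 0.43 and 1.51 ± 0.44), *Sim1* was lower in both (-2.01 ± 0.42 and -1.90 ± 0.43), *Twist2*, a dermal gene, was lower in both (-0.57 ± 0.12 and -0.36 ± 0.12), *Pax9* was higher in WT (2.52 against 1.10 CPM) and *En1* lower in KO (-0.66 ± 0.23). *Alx1*, a head mesenchyme homeobox gene, was lower in both genotypes (-1.66 ± 0.38 and -1.09 ± 0.37). Of 5 tested genes of the viscera, *Gata4* (2.78 CPM in female WT, 0.430 CPM in male WT) was the 1 counted as higher in both genotypes, and it reached the level of the filter in 2 of 6 male libraries. For KO against WT, none of these lists held a gene past an adjusted p under 0.05 in edgeR's test, in either sex.

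*Tbx2* and *Tbx4* lie 44473 bases apart with Gm11444 between them, and *Tbx3* and *Tbx5* lie 149938 bases apart with Gm16065 between them. Their contacts were read from the C2C12 Hi-C map at 40 kb, in which the 2 replicates were pooled, so the values have no error and no test. The bins of *Tbx2* and *Tbx4* had a mean corrected contact signal of 22.2, against 27.8 for all bin pairs of chromosome 11 at the same distances, a ratio of 0.80. The pair at 40 kb lay below the mean of the chromosome (22.6 against 37.6) and the pair at 80 kb above it (21.8 against 18.1). The bin of *Tbx2* had more contact further along on the *Tbx4* side, with 34.5 at 120 kb, where the chromosome averaged 12.8, and 23.6 at 320 kb, where it averaged 4.98. On the other side it had 10.9 at 120 kb and 17.7 at 320 kb.

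The bin of *Tbx3* had no recorded contact with either bin of *Tbx5*, at 160 and 200 kb, where the mean of the chromosome was 8.02 over both distances. Of 7345 bin pairs of chromosome 5 at these distances 486, or 6.62%, were likewise absent. On the side away from *Tbx5* the same bin had signals of 10.8 at 160 kb and 9.49 at 200 kb. On the *Tbx5* side the signal was 12.3 at 40 kb, 2.07 at 80 kb and 1.24 at 120 kb, where the chromosome averaged 33.2, 15.6 and 11.2. The paralogous pairs thus differed in the map. Contact between *Tbx2* and *Tbx4* was recorded, at 0.80 of the average for their distances, and none was recorded between *Tbx3* and *Tbx5*. C2C12 cells are not MEFs, and these genes' levels in C2C12 cells were not analysed here.

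**Figure D5:**
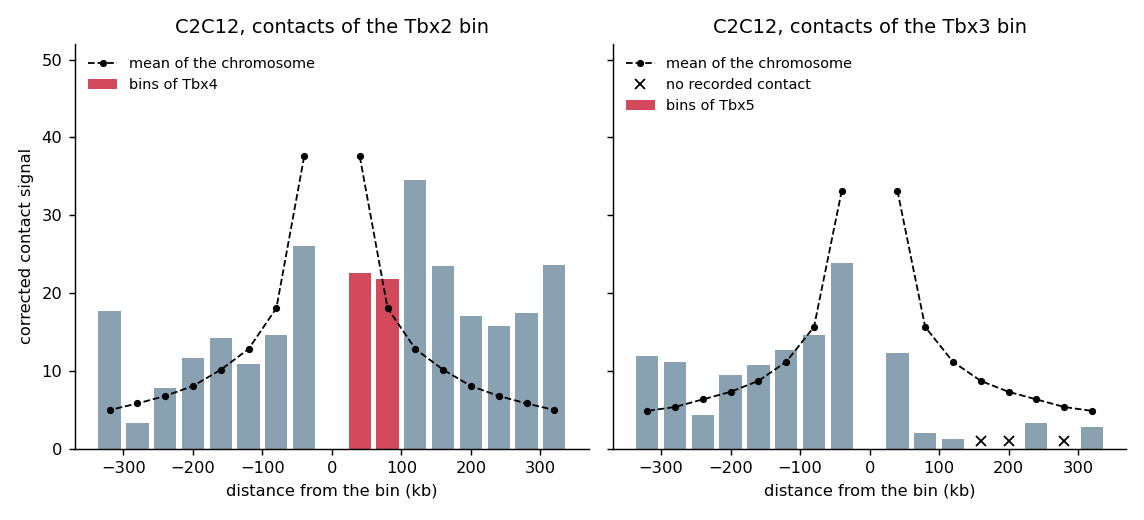
Corrected contact signal in C2C12 cells (y axis, starting at 0) of the 40 kb bin of *Tbx2* (left) and of *Tbx3* (right) with bins up to 320 kb away on either side (x axis, kb, positive towards the paralogue); red bars are bins of the paralogue, crosses mark pairs with no recorded contact, and the dashed lines give the mean of the chromosome at each distance. The *Tbx2* bars on the right exceed the mean from 80 kb on, and the *Tbx3* bars on the right all lie below it.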

How the data were processed

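RNA was extracted with TRIzol and spin columns, and poly(A) libraries that do not mark strand were sequenced on an Illumina HiSeq. The authors aligned reads to mouse transcripts (mm9) with Bowtie 2 and deposited expected counts per gene from RSEM 1.2.29, which divide reads shared between genes; *Meis1* and *Meis2* had fractional values in 12 libraries and *Tbx5* in 2. For C2C12 cells the authors deposited a contact signal in 40 kb bins from HiC-Pro 2.7.8, corrected for bin coverage, with the 2 replicates pooled. The genes and lists described were chosen with earlier results of these data known. No column of values was left unmapped to a sample.

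After rounding of the expected counts, genes were compared with edgeR 4.0.16 in R 4.3.3 (quasi-likelihood F test, TMM scaling, filterByExpr, 1 mean per group, 8 residual degrees of freedom) over 15387 genes, tested on simulated data first. Group sizes were 3, and depth ranged from 42986516 to 65454660 expected counts. DESeq2 1.42.0 was the alternative tool. Named were the 9 genes, *Firre*, from each list at most 4 genes per comparison with the highest absolute log2 fold change among those past an adjusted p under 0.05, and the 3 genes closest in profile to each limb-type gene; some list genes are not reported here. Ratios used a pseudocount of 0.5 counts and exact permutation tests (scipy 1.17.1). Gene coordinates and exon lengths are those of the GENCODE annotation of mm9, in which all 37310 identifiers were found. Alternatives were other scalings, filters, tools and thresholds, a replicate block, fits on only the libraries compared, and leaving out each library. Replicate numbers were not taken to pair samples: no label ties them to a shared embryo or day, and the correlation of deviations between same-numbered WT and KO libraries was -0.16 to -0.12 in female MEFs. In male MEFs it was 0.10 to 0.33, over 0.1 in 2 of 3 pairs.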

Additional observations from a re-analysis of the deposited data

How the results depend on the processing

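Of 720 alternative values of single genes' log2 fold changes, 683 kept their direction and their side of the threshold, as did 301 of 317 values that answer a comparison. The calls between the sexes depended on the rule: with no fold-change limit, at an adjusted p under 0.05, 6 genes were called in WT and 4 in KO, in place of 0. For KO against WT, 0 of 9 genes were called under every alternative, by DESeq2 too.

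With the replicate number as a block, 5 genes passed an adjusted p under 0.05 between the sexes in WT and 3 in KO: *Tbx2* in WT (adjusted p = 0.0604 in edgeR's test) and *Tbx3* in KO (0.0604) were lost, and *Tbx4* in female KO against WT changed sign at -0.0016; no other call changed under the block. *Tbx2* in WT was also lost with library size alone (adjusted p = 0.0524 in edgeR's test) and with only the libraries compared (0.0888). Library size alone took *Tbx4* in female KO against WT to -0.0080. Without both male libraries numbered 3, chosen after the data were seen, KO against WT in male MEFs was -0.092 for *Tbx18*, -0.29 for the *Tbx5* to *Tbx4* ratio and -0.65 for the *Tbx5* to *Pitx1* ratio. The cause was not tested.

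With each library left out in turn, log2 fold changes of female KO against WT ran from -0.21 to 0.23 for *Tbx4*, -0.034 to 0.13 for *Tbx18* and -0.076 to 0.070 for *Meis1*. In male KO against WT they ran from -0.031 to 0.39 for *Tbx2*, -0.0077 to 0.18 for *Tbx3*, -0.039 to 0.12 for *Tbx18* and -0.071 to 0.83 for *Pitx1*. Those of *Tbx5* between the sexes ran from -0.56 to 0.47 in WT and -0.32 to 0.40 in KO. The *Tbx5* to *Tbx4* ratio ran from 0.066 to 0.91 for female and -0.49 to 0.79 for male KO minus WT and -1.06 to -0.51 for female minus male, and the *Tbx5* to *Pitx1* ratio from -0.10 to 0.63, -0.57 to 1.02 and -0.87 to -0.23. The contact ratio of *Tbx2* and *Tbx4* was 0.60 with the bins of the gene starts only and 0.85 against the median background. Leaving out absent bin pairs gave no value for *Tbx3* and *Tbx5*. At its mean of 89.4 counts over the 12 libraries (42 to 164), counting error alone gave *Tbx5* a coefficient of variation of 10.6%, below its spread between replicates of 49.3%.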
